A study of Mus musculus with 50 samples.

Results

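Platelet and megakaryocyte mRNAs were followed through 9 genes, namely Pf4, Ppbp, Itga2b, Itgb3, Gp1ba, Gp5, Gp9, Clec1b and Treml1. They were found by their annotated gene symbol, whatever their values, among the 36607 probes of the deposited table. No probe of the table carries the symbol Gp1ba, so 8 of the 9 genes could be described, among 15311 named genes with values. These 8 genes have 9 probes, since Clec1b has a second one.

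Each of 50 two-colour arrays set the RNA of 1 whole spleen sample, labelled with Cy5, against Universal Mouse Reference RNA, labelled with Cy3, a pool of cell types and tissues whose label names neither megakaryocytes nor bone marrow. All mice were female, and the labels used here give no age. Wild-type BALB/c mice were examined 0.5, 1, 3, 9, 24 or 72 h after an intraperitoneal injection of 400 µg of CpG oligodeoxynucleotides (ODN) (n = 4 arrays per time), 3 h after 400 µg of control ODN (n = 4), or untreated (n = 6). C57BL/6 TNF-KO mice, labelled as knockouts of tumor necrosis factor (TNF), a cytokine of inflammation, were examined 3 h after CpG ODN or untreated, as were C57BL/6 control mice (n = 4 arrays in each of these 4 groups). No dose is labelled for C57BL/6 mice, and 1 label field of all 8 CpG-treated C57BL/6 arrays names untreated mice, so their titles were followed. Tnf itself lay between 3.16 and 4.59 on the log2 ratio scale in C57BL/6 controls after CpG ODN and between 0.58 and 0.78 in untreated C57BL/6 controls. In TNF-KO spleens it lay between -0.45 and 0.43 after CpG ODN and between -0.61 and 0.09 without treatment.

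The injected ODN are shown because every treated group rests on them, with each CG dinucleotide in capitals. They are phosphorothioate oligomers, and unmethylated CG dinucleotides in a suitable setting are ligands of Toll-like receptor 9, an endosomal receptor of the innate immune system. The sequences are given 5′ to 3′.
CpG ODN 1555: gctagaCGttagCGt
CpG ODN 1466: tcaaCGttga
control ODN 1612: gctagatgttagCGt
control ODN 1471: tcaagcttga
The CpG mixture thus holds 2 CG dinucleotides in ODN 1555 and 1 in ODN 1466, and the control mixture 1 in ODN 1612 and 0 in ODN 1471.

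Platelets are shed by megakaryocytes, which in adult mice reside in the bone marrow and also in the red pulp of the spleen. The spleen also stores platelets, which carry mRNA but no nucleus. Platelet alpha granules release chemokines, and platelet adhesion runs through the GPIb-IX-V complex, which binds von Willebrand factor, and through the integrin alphaIIb beta3, which binds fibrinogen. Pf4 (platelet factor 4, CXCL4) and Ppbp (pro-platelet basic protein, CXCL7) encode the granule chemokines. Gp1ba, Gp5 and Gp9 encode subunits of the GPIb-IX-V complex, Itga2b and Itgb3 the alphaIIb and beta3 integrin chains, Clec1b the C-type lectin-like receptor CLEC-2, which binds podoplanin, and Treml1 a receptor of the alpha granule membrane (TLT-1) that reaches the surface of activated platelets. In whole spleen RNA, fewer cells of a type and less RNA per cell cannot be told apart.

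A log2 ratio states how much more of an mRNA the spleen RNA held than the reference RNA, and it can be compared between samples but not between genes. Ppbp lay between 3.69 and 6.73 over its 49 measured arrays and Gp5 between 2.46 and 5.07 over 49 arrays. Gp9 lay between 1.15 and 2.70 and Treml1 between 0.11 and 2.26, each over 50 arrays. These 4 genes were thus above the reference on every array that measured them. Itga2b was above the reference on every array as well, with log2 ratios between 0.25 and 1.49. Pf4 (between -0.21 and 2.19) and Itgb3 (between -0.51 and 1.00) went below it on some arrays. For Clec1b the probe with values on all 50 arrays lay between -0.49 and 2.16, and the other probe, measured on 49 arrays, between 3.25 and 5.61. The first of these Clec1b probes had the widest spread within groups of all 9 probes, with a pooled SD of 0.67, and Itga2b the narrowest, with 0.25.

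**Figure D1:**
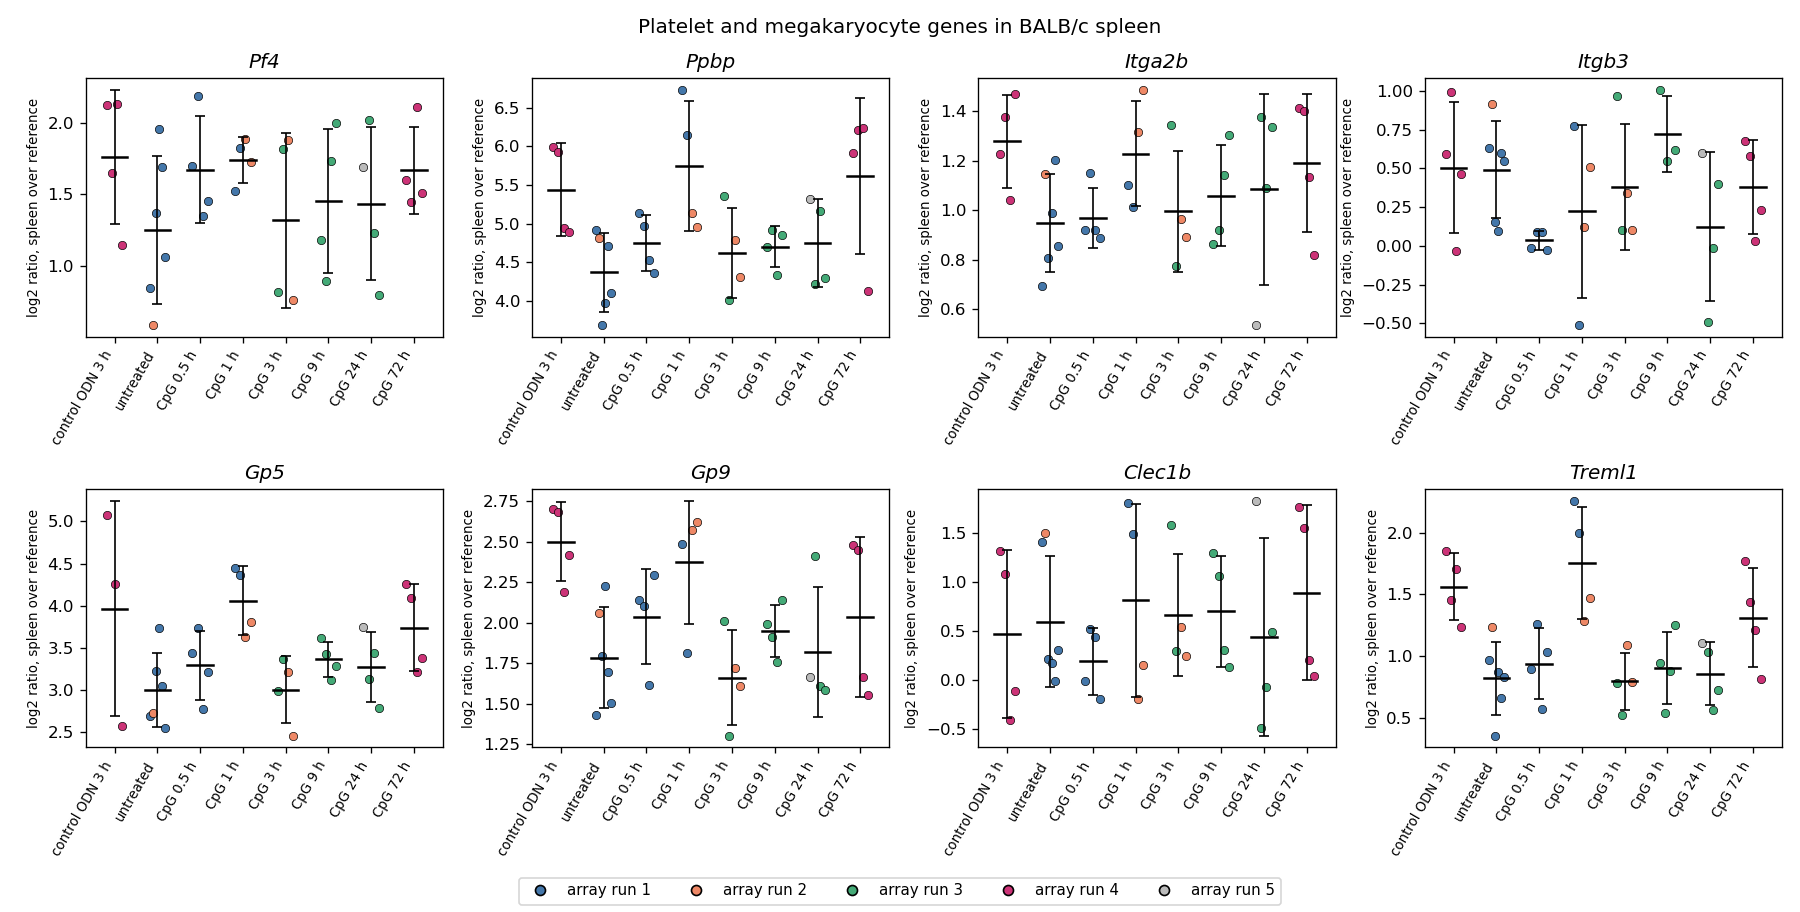
Log2 ratio of spleen over reference RNA (vertical axis) for 8 platelet and megakaryocyte genes in each BALB/c array, by treatment group (horizontal axis), with Clec1b shown by the probe with values on all arrays. Points are arrays coloured by run of adjacent array numbers, lines are group means and bars are SDs. The 4 arrays at 1 h lie above all untreated arrays for Ppbp and Treml1, and at 3 h the CpG and untreated arrays overlap for all 8 genes.

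The arrays had between 27619 and 30590 values each, and correlations across probes between an array and the rest of its group had medians between 0.85 and 0.928. The number of arrays limits the precision, with residual SDs of 0.299 in the BALB/c fit and 0.305 in the C57BL/6 fit for the median gene. The arrays fall into runs of adjacent array numbers, which stand in for batches here, and of which BALB/c took up 5. Replicates 1 and 2 at 1 h lay in the first run with the 0.5 h arrays and 5 untreated arrays, and replicates 3 and 4 at 1 h in the second with untreated replicate 2. The control ODN and 72 h arrays made up the fourth run, which had no untreated array, so for both groups run and treatment cannot be told apart. The error given with a log2 change is its limma standard error, and an adjusted p is a Benjamini-Hochberg value across every gene tested in the comparison, with a threshold of 0.05. The tests ask whether groups differ beyond the spread between arrays, which the submitters describe as coming from independent experiments.

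One hour after CpG ODN, Ppbp and Treml1 mRNA was higher than in untreated BALB/c spleen. Ppbp had log2 ratios of 6.73, 6.15, 5.14 and 4.96 at 1 h (replicates 1 to 4), while in untreated spleens the lowest was 3.69, the median 4.41 and the highest 4.92. Every 1 h array lay above every untreated array, replicate 4 by little. The change was 1.38 ± 0.37 on the log2 scale, or 2.59-fold (limma, adjusted p = 0.0291). Treml1 had log2 ratios of 2.26, 2.00, 1.28 and 1.47 at 1 h, against a lowest value of 0.35, a median of 0.85 and a highest of 1.24 in untreated spleens. Again the groups did not overlap, and the change was 0.93 ± 0.20, or 1.91-fold (limma, adjusted p = 0.00397).

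Gp5 and Gp9, the GPIb-IX-V subunits measured among the 8 genes, moved in the same direction without passing the test. A further chain of the complex, Gp1bb, passed and is given below with the other platelet genes. Gp5 had log2 ratios of 4.45, 4.37, 3.62 and 3.80 at 1 h, against a lowest of 2.55, a median of 2.89 and a highest of 3.73 in untreated spleens, so that the groups overlapped in 1 array of each. Its difference was 1.06 ± 0.32 (limma, adjusted p = 0.0612), and it passed without untreated replicate 4 (1.21 ± 0.32, limma, adjusted p = 0.0272) or CpG replicate 3 (1.21 ± 0.35, limma, adjusted p = 0.049). Gp9 had 2.49, 1.81, 2.57 and 2.62 at 1 h, and the untreated arrays had a lowest of 1.43, a median of 1.74 and a highest of 2.23. Replicate 2 lay inside the untreated range and the other 3 above it, with a difference of 0.59 ± 0.21 (limma, adjusted p = 0.13). Pf4 and Itga2b differed by 0.49 ± 0.28 and 0.28 ± 0.16, and Itgb3 by -0.27 ± 0.23. In all, 2 of the 8 genes were called, both higher, while 3.3% of the 15263 genes tested were called in this comparison. The median log2 change was 0.54 over the 8 genes and 0.0533 over all genes.

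The values of Ppbp and Treml1 at 1 h went with the array run. Ppbp averaged 6.44 in replicates 1 and 2 of the first run, where the 5 untreated arrays averaged 4.28, and 5.05 in replicates 3 and 4 of the second run, where the single untreated array had 4.82. Treml1 averaged 2.13 at 1 h and 0.73 in untreated spleens of the first run, and 1.38 at 1 h beside 1.24 in the untreated array of the second run. Gp5 and Clec1b also averaged higher in the first run than in the second at 1 h. The other genes went the other way at 1 h, with 2.15 and 2.60 for Gp9, 1.06 and 1.40 for Itga2b, 1.68 and 1.81 for Pf4 and 0.13 and 0.31 for Itgb3. With the run as a term of the fit Ppbp changed by 1.55 ± 0.40 (limma, adjusted p = 0.0199), Treml1 by 1.00 ± 0.22 (limma, adjusted p = 0.00545) and Gp5 by 1.24 ± 0.34 (limma, adjusted p = 0.0294). Within the first run alone the changes were 2.16 ± 0.32 for Ppbp, 1.40 ± 0.21 for Treml1 and 1.36 ± 0.30 for Gp5 (limma, adjusted p = 0.00129, 0.00153 and 0.0124), from 2 arrays at 1 h. Clec1b also passed there (1.24 ± 0.33, limma, adjusted p = 0.0283), so that 4 of the 8 genes did. The second run held 1 untreated array and gave no test of its own. The call of Ppbp was lost without CpG replicate 1 or 2 or untreated replicate 3, 4 or 6, with adjusted p-values between 0.0576 and 0.22. It was also lost when all arrays were scaled to the same spread (0.55 ± 0.36, limma, adjusted p = 0.586), whereas Treml1 kept an adjusted p under 0.05 without any single array of either group (between 0.00178 and 0.0485).

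Both Clec1b probes were higher in replicates 1 and 2 than in replicates 3 and 4 at 1 h. The probe with more values had 1.81 and 1.49 in the first pair and -0.19 and 0.15 in the second, and the other probe 4.89 and 4.98 in the first pair and 4.27 and 4.17 in the second. Against untreated spleen they differed by 0.22 ± 0.45 (limma, adjusted p = 0.852 over all probes) and 0.73 ± 0.28 (limma, adjusted p = 0.167 over all probes). Neither passed the test.

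**Figure D2:**
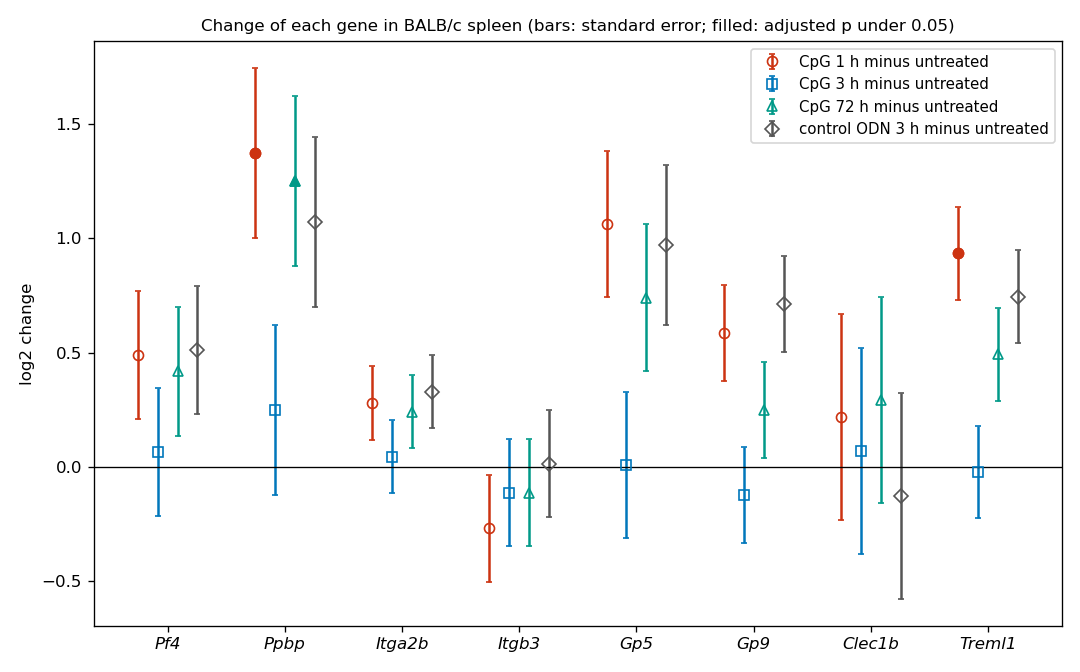
Log2 change against untreated BALB/c spleen (vertical axis) for each of 8 genes (horizontal axis) at 1, 3 and 72 h after CpG ODN and 3 h after control ODN. Points are fitted changes with standard errors, filled where the adjusted p is under 0.05, which holds for Ppbp and Treml1 at 1 h and for Ppbp at 72 h; the points for CpG ODN at 3 h lie between -0.12 and 0.25, and those for control ODN at 3 h reach 1.07 for Ppbp.

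The upstream regions of the 4 genes with the largest fitted changes at 1 h, with 1 probe per gene, are shown because these changes had the same direction. Only those of Ppbp and Treml1 passed the test. The other Clec1b probe, not ranked here, differed by 0.73. They are the 120 bases before the transcription start, on the strand of the gene, from RefSeq on build GRCm38.p6. Capitals mark GATA words (AGATAA or TGATAA) and ETS words (AGGAAG or CGGAAG) on either strand, the core letters bound by GATA1 and by ETS factors such as FLI1, which drive megakaryocyte genes.
Ppbp, chr5:90768398-90768517, plus strand: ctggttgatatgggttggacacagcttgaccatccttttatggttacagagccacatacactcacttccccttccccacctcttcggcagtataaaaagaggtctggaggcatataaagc
Treml1, chr17:48359796-48359915, plus strand: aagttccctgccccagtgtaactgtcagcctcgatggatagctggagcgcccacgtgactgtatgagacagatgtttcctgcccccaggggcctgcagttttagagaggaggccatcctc
Gp5, chr16:30310782-30310901, minus strand: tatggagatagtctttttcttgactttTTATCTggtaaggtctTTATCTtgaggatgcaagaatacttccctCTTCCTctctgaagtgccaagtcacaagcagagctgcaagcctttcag
Gp9, chr6:87777950-87778069, plus strand: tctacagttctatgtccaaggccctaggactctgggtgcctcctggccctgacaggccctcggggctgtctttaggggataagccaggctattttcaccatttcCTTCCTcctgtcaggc
The 250 bases before the start were searched for 8 of the 9 genes. Gp1ba was among them, and Itgb3 was not, since no upstream sequence was at hand for it. Of the 8 genes searched, 3 hold a GATA word and 5 an ETS word, beside 17% and 39% of 27025 promoters. Gp5 holds 2 GATA words and 1 ETS word, Gp9 holds 1 ETS word, and Ppbp and Treml1 hold neither. A match is a description of the letters and not a binding site.

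Other platelet and megakaryocyte genes, listed by role, also differed at 1 h. Of 76 such genes 64 had values and were tested, and 14 were higher and 0 lower, while 3.01% of all genes were higher and 0.288% lower. Among 18 surface receptors 5 rose. Selp, P-selectin, a granule membrane receptor shared with endothelium, rose by 1.66 ± 0.22, and Gp1bb, the partner chain of Gp1ba in the GPIb-IX-V complex, by 1.34 ± 0.31 (limma, adjusted p = 2.62e-06 and 0.00965). F2rl3, the thrombin receptor PAR4, rose by 0.83 ± 0.23 and Slamf1, a receptor of several blood cell types, by 1.17 ± 0.33 (limma, adjusted p = 0.0307 and 0.0372).

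Of 16 granule and secreted proteins 5 rose. They included Vwf, von Willebrand factor (1.31 ± 0.31), Mmrn1, the factor V-binding protein multimerin 1 (1.54 ± 0.39), Thbs1, thrombospondin 1 (1.84 ± 0.42), and the chemokine gene Cxcl5 (1.07 ± 0.23), with limma adjusted p-values of 0.0108, 0.0213, 0.00769 and 0.00392. Of 16 signalling and cytoskeleton genes 4 rose, namely Slc6a4, the serotonin transporter by which platelets take up serotonin (1.63 ± 0.28), Alox12, the platelet 12-lipoxygenase (1.16 ± 0.25), the SNARE protein gene Stx11 (0.92 ± 0.17) and the kinase gene Syk (1.00 ± 0.24). Their limma adjusted p-values were 0.00021, 0.00451, 0.000499 and 0.0108. Mmrn1 and Slc6a4 had a small spread at 1 h, with SDs of 0.12 and 0.16 around means of 2.74 and 3.26 at 1 h, and untreated means of 1.20 and 1.62.

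None of 14 transcription factors of the megakaryocyte lineage was called at 1 h, with 2 at an unadjusted p under 0.05, as 16.5% of all genes had. Nfe2, needed for platelet release, differed by 0.76 ± 0.33 and Lyl1 by 0.59 ± 0.28 (limma, adjusted p = 0.229 and 0.269). The median change over the list was 0.065, beside 0.589 for the receptors, 0.477 for the granule proteins and 0.676 for the signalling genes. With all arrays scaled to the same spread 6 of the 64 genes were called at 1 h, and without CpG replicate 1 or 2 the count was 6 or 5.

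**Figure D3:**
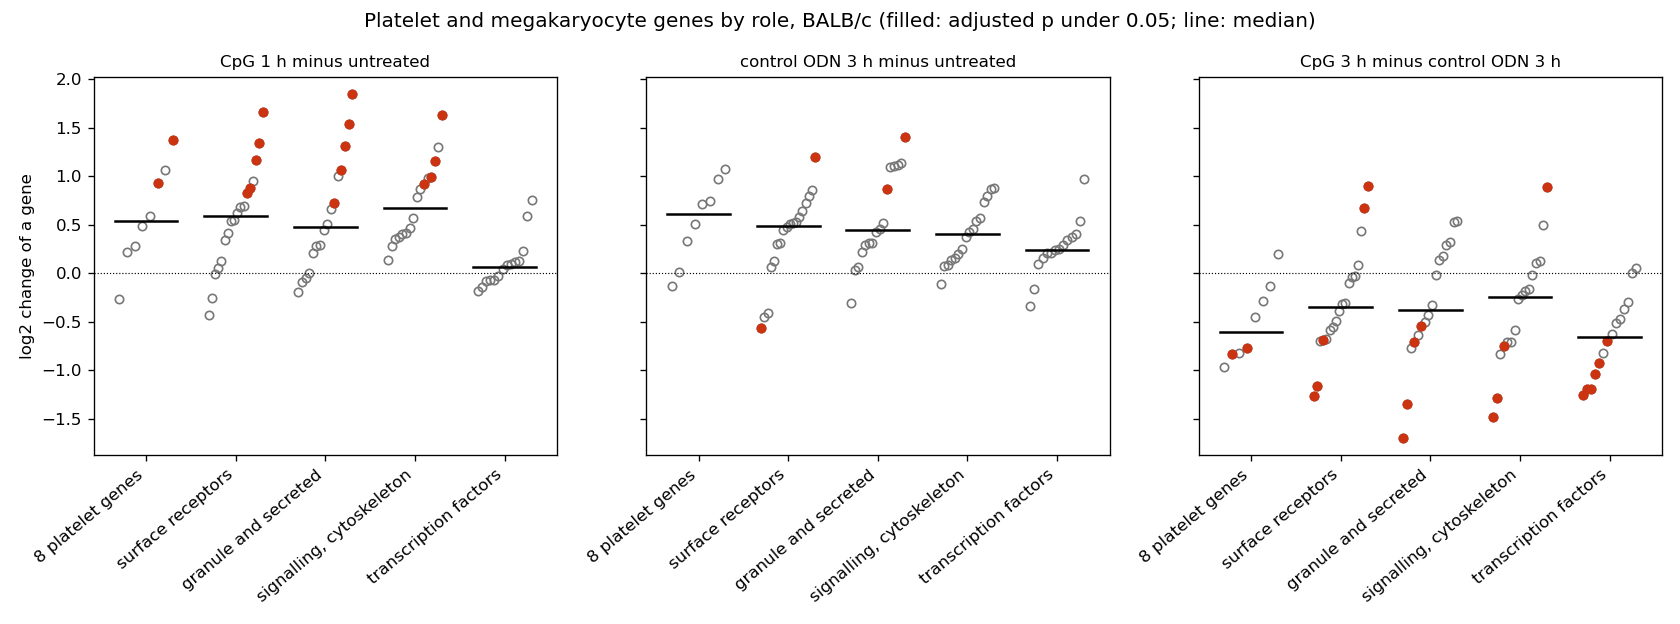
Log2 change of each gene (vertical axis) for the 8 platelet genes and 4 role lists (horizontal axis), at 1 h after CpG ODN against untreated, control ODN at 3 h against untreated, and CpG against control ODN at 3 h, all in BALB/c. Filled points have an adjusted p under 0.05 and lines are list medians; at 1 h the medians of 3 role lists lie between 0.477 and 0.676 and that of the transcription factors at 0.065.

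Markers of neutrophils and of monocytes and macrophages were also higher at 1 h. Of 17 neutrophil genes 16 had a positive change and 7 were called higher. Over all genes the median change was 0.0533, and 3.01% were called higher. The neutrophil mean per array lay between 2.66 and 3.45 at 1 h and between 1.45 and 2.15 in untreated spleens. Of 12 monocyte and macrophage genes 4 were called higher, with means between 3.37 and 3.75 at 1 h and between 2.29 and 2.92 in untreated spleens. None of 12 endothelial genes was called (limma, 5 at an unadjusted p under 0.05), and all 12 changes were positive, with a median of 0.468. None of 19 erythroid genes was called (limma, 1 at an unadjusted p under 0.05), with a median of 0.295. Likewise no B cell, T cell or stem and progenitor cell gene was called, of 6, 6 and 9 tested. Pancreas genes, from a neighbouring organ, varied widely within groups, between 0.34 and 6.17 at 1 h and between 0.49 and 5.66 in untreated spleens. The part of these markers in the platelet result was not tested.

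At the other times up to 24 h no member of the 8 was called. At 0.5 h there were 0 calls (limma, 0 at an unadjusted p under 0.05), beside 0.256% of all genes called and 9.76% at that unadjusted p. Itgb3 averaged 0.03 ± 0.06 at 0.5 h and 0.49 ± 0.31 in untreated spleens (SD, n = 4 and 6). These groups all but touched, with 0.092 as the highest value at 0.5 h and 0.093 as the lowest in untreated spleens. The difference was -0.46 ± 0.23 (limma, adjusted p = 0.511). At 3 h there were 0 (limma, 0 at an unadjusted p under 0.05), beside 9.96% and 19.9% of all genes. At 9 h there were likewise 0 and 0, beside 6.96% and 17.6%, and at 24 h 0 and 0, beside 8.45% and 23.1%. At 3 h the 8 changes lay between -0.12 ± 0.21 for Gp9 and 0.25 ± 0.37 for Ppbp, with a median of 0.027. Treml1, for example, had 0.78, 0.52, 1.09 and 0.79 at 3 h, inside the untreated range. Within the second run Ppbp averaged 5.05 at 1 h and 4.55 at 3 h, and Gp9 2.60 at 1 h and 1.67 at 3 h, from 2 arrays each and with no test.

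Among the 64 other platelet genes 6 were higher and 5 lower at 3 h, beside 6.82% and 3.14% of all genes. Selp was higher by 1.69 ± 0.22 and Stx11 by 1.45 ± 0.17 (limma, adjusted p = 3.98e-07 and 4.37e-08), as was Fcer1g, the signalling chain of the collagen receptor GPVI and of myeloid Fc receptors (0.96 ± 0.18, limma, adjusted p = 0.000264). Cavin2, a caveolar protein gene, fell by 1.23 ± 0.23, and the transcription factor genes Meis1 by 0.94 ± 0.18, Nfib by 0.83 ± 0.16 and Fli1 by 0.68 ± 0.19 (limma, adjusted p = 0.0002, 0.000213, 0.000272 and 0.0144). All 14 transcription factors had a negative change at 3 h, with a median of -0.294, beside -0.0306 over all genes, and 3 were called. Neutrophil genes were called higher in 6 of 17 cases at 3 h, with means between 2.37 and 2.63 per array at 3 h, all above the range of 1.45 to 2.15 in untreated spleens. Of 12 monocyte and macrophage genes 2 were higher, Cd14 by 3.39 ± 0.28 and Spic, a factor of red pulp macrophages, by 1.01 ± 0.24 (limma, adjusted p = 5.09e-11 and 0.00321). Of 9 stem and progenitor cell genes 2 were lower, Sox4 (-0.81 ± 0.22, limma, adjusted p = 0.011) and Meis1, which stands in this list too, and 1 was higher, and of 6 T cell genes 1 was lower. At 9 h 4 genes were higher and 4 lower, beside 4.19% and 2.77% of all genes, and at 24 h 3 higher and 1 lower, beside 6.83% and 1.62%. Neutrophil genes were higher in 6 of 17 cases at 9 h and 4 of 17 at 24 h. Monocyte and macrophage genes were higher in 4 of 12 cases and lower in 1 at 9 h, and higher in 5 of 12 at 24 h, while erythroid genes were lower in 5 of 19 at 24 h. For 3, 9 and 24 h the part of these markers in the platelet values was not tested.

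At 72 h Ppbp was higher again. Its log2 ratios were 5.91, 6.22, 6.23 and 4.12 at 72 h, so that 3 arrays lay above and 1 inside the untreated range. The change was 1.25 ± 0.37 (limma, adjusted p = 0.0278). Gp5 had 4.26, 4.09, 3.21 and 3.38 and Treml1 1.78, 1.44, 1.21 and 0.82, with differences of 0.74 ± 0.32 and 0.49 ± 0.20 (limma, adjusted p = 0.124 and 0.107). The other Clec1b probe, measured on 3 of the 72 h arrays, had 4.56, 5.61 and 4.65, all above the untreated arrays, whose lowest was 3.47, median 3.61 and highest 4.46. It changed by 1.10 ± 0.30 (limma, adjusted p = 0.0218 over all probes), whereas the probe with more values differed by 0.29 ± 0.45 (limma, adjusted p = 0.722 over all probes).

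In all, 1 of the 8 genes was called at 72 h, beside 10.6% of all genes, a share near that background. The Ppbp call was lost without any single one of CpG replicates 1, 2 and 3 or untreated replicates 3, 4 and 6, with adjusted p-values between 0.0511 and 0.131, and without CpG replicate 4 the change was 1.75 ± 0.35. With arrays weighted by their quality 6 of the 8 were called. Of the other platelet genes 8 were higher and 2 lower, beside 6.43% and 4.15% of all genes. Gata1, the master factor of megakaryocytes and erythroid cells, rose by 0.91 ± 0.20 and Slc6a4 by 1.10 ± 0.28 (limma, adjusted p = 0.00409 and 0.0106). Erythroid genes were higher in 4 of 19 cases, neutrophil genes in 5 of 17 and monocyte and macrophage genes in 4 of 12 at 72 h, each with 0 lower. T cell genes were lower in 3 of 6 cases and B cell genes in 1 of 6, with 0 higher. The stem and progenitor cell gene Myb was higher by 0.82 ± 0.14 (limma, adjusted p = 0.000225). The part of these cells in the platelet values was not tested.

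Control ODN, of which ODN 1612 also holds 1 CG dinucleotide, were examined at 3 h. None of the 8 genes was called against untreated spleen, beside 1.42% of all genes, while 5 had an unadjusted p under 0.05 in limma, all of them higher, as 22.4% of all genes had in either direction. Treml1 had 1.86, 1.46, 1.71 and 1.23 after control ODN, against the untreated median of 0.85 and highest of 1.24. Replicate 4 lay level with the highest untreated array and the other 3 above it, and the difference was 0.74 ± 0.20 (limma, adjusted p = 0.0528). Gp9 had 2.70, 2.68, 2.19 and 2.42 after control ODN, of which 3 lay above the highest untreated value of 2.23, and differed by 0.71 ± 0.21 (limma, adjusted p = 0.0683).

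Ppbp had 6.00, 5.93, 4.94 and 4.90 after control ODN, with a difference of 1.07 ± 0.37 from untreated spleen (limma, adjusted p = 0.1). Gp5 had 5.07 and 4.26 in replicates 1 and 2 and 2.57 in replicate 4, with no value in replicate 3. The first pair lay above all untreated arrays and replicate 4 near the lowest of them (2.55), with a difference of 0.97 ± 0.35 (limma, adjusted p = 0.11). The median change of the 8 genes was 0.613, beside 0.0913 for all genes. Without control ODN replicate 4, 4 of the 8 genes were called, with changes of 1.25 for Ppbp, 1.67 for Gp5, 0.74 for Gp9 and 0.85 for Treml1 (limma, adjusted p = 0.037, 0.00302, 0.0329 and 0.0126), and array weights also called these 4. Without untreated replicate 4, Gp9 alone was called (0.80 ± 0.21, limma, adjusted p = 0.0469).

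Of the 64 other platelet genes 3 were higher and 1 lower after control ODN, beside 1.05% and 0.367% of all genes. F13a1, the coagulation factor XIII A chain of platelets and monocytes, rose by 1.41 ± 0.28, Gp1bb by 1.20 ± 0.31 and Rab27b, a GTPase of platelet dense granules, by 0.87 ± 0.22 (limma, adjusted p = 0.0235, 0.049 and 0.0459). Itga2, the collagen-binding integrin alpha2 chain, fell by 0.56 ± 0.15 (limma, adjusted p = 0.0484). The count of 4 changed to 15 without control ODN replicate 4, to 7 without untreated replicate 4, and to 0 or 1 without untreated replicate 1, 2, 5 or 6 or control ODN replicate 1, 2 or 3. Neutrophil genes were called in 3 of 17 cases after control ODN, with means between 1.94 and 3.20 per array, against between 1.45 and 2.15 in untreated spleens. Monocyte and macrophage genes were called higher in 1 of 12 cases and erythroid genes in 1 of 19. The part of these cells in the platelet values was not tested.

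Set directly against control ODN at 3 h, Gp9 and Treml1 were lower after CpG ODN. Gp9 averaged 1.66 after CpG ODN, 2.50 after control ODN and 1.78 in untreated spleens, and Treml1 0.80, 1.56 and 0.82. The CpG means thus lay near the untreated ones, and the control ODN means above both. Gp9 had 2.01, 1.30, 1.72 and 1.61 after CpG ODN, against 2.70, 2.68, 2.19 and 2.42 after control ODN. Treml1 had 0.78, 0.52, 1.09 and 0.79 after CpG ODN, against 1.86, 1.46, 1.71 and 1.23 after control ODN. Neither gene's groups overlapped. Gp9 was lower by 0.84 ± 0.23 and Treml1 by 0.77 ± 0.22 (limma, adjusted p = 0.0108 and 0.015), while Gp5 and Ppbp differed by -0.96 ± 0.38 and -0.82 ± 0.41 (limma, adjusted p = 0.0735 and 0.161). Of the 8 genes 2 were called, both lower, beside 18.3% of all genes called in either direction and 10.9% called lower. For 8 genes, a count of 2 is not far from the share over all genes in either direction. The median change was -0.606 for the 8 genes and -0.0784 for all genes.

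The CpG and control ODN arrays at 3 h shared no run, so run and mixture cannot be told apart. The Gp9 call was lost with all arrays scaled to the same spread (-0.52 ± 0.25, limma, adjusted p = 0.149). That of Treml1 was lost without CpG replicate 2 or control ODN replicate 1 or 3, with adjusted p-values between 0.0516 and 0.0626, and without control ODN replicate 4 the Gp5 difference of -1.66 was called (limma, adjusted p = 0.000737). The comparisons with untreated spleen and with control ODN share arrays, so their values are not independent of each other.

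Among the other platelet genes 16 were lower and 3 higher after CpG than after control ODN, beside 10.9% and 7.4% of all genes. Of 14 transcription factors 6 were lower. Meis1 averaged -1.40 ± 0.20 after CpG ODN and -0.21 ± 0.45 after control ODN (SD, n = 4 each). Meis1 was lower by 1.19 ± 0.19, Nfib by 1.04 ± 0.17, Fli1 by 0.92 ± 0.21 and Lyl1 by 1.25 ± 0.30 (limma, adjusted p = 3.34e-05, 4.71e-05, 0.00196 and 0.00372). F13a1 was lower by 1.70 ± 0.31, Vwf by 1.34 ± 0.34 and Cavin2 by 1.48 ± 0.25 (limma, adjusted p = 0.000163, 0.00624 and 6.57e-05). Pear1, a platelet aggregation receptor also found on endothelium, was lower by 1.26 ± 0.31 (limma, adjusted p = 0.00388). F13a1 was also among the genes called higher after control ODN than in untreated spleen. Selp, Itga2 and Stx11 were higher by 0.90 ± 0.24, 0.68 ± 0.16 and 0.89 ± 0.18 (limma, adjusted p = 0.00768, 0.00371 and 0.00071). Erythroid genes were lower in 4 of 19 cases, endothelial genes in 3 of 12 and B cell genes in 2 of 6, with 0 higher in these lists. Monocyte and macrophage genes went both ways, with 3 of 12 lower and 1 higher, Cd14, which encodes a co-receptor for lipopolysaccharide and had the largest change of that list (2.29 ± 0.31, limma, adjusted p = 2.26e-06). Neutrophil genes also went both ways, with 2 of 17 higher and 1 lower. Among stem and progenitor cell genes, besides Meis1, Sox4 was lower and Hoxa9 higher (-0.81 ± 0.24 and 0.51 ± 0.14, limma, adjusted p = 0.0174 and 0.0105). How far these lists bear on the result was not tested.

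In C57BL/6 control mice 3 h after CpG ODN, Clec1b was lower than in untreated controls by its probe with more values. This probe had 0.44, 1.30, 1.10 and 0.64 after CpG ODN, against 1.66, 1.94, 1.498 and 2.16 in untreated controls. The groups did not overlap, and the fall was 0.94 ± 0.25 (limma, adjusted p = 0.0236). The other probe fell short of the test, with 4.08, 4.74, 3.86 and 4.17 after CpG ODN, against 4.54, 4.71, 4.93 and 4.70 in untreated controls and a difference of -0.51 ± 0.25 (limma, adjusted p = 0.285 over all probes). Of the 8 genes 1 was called, beside 7.7% of all genes, a share not far above that background. The call was lost without untreated replicate 2 or 4 or CpG replicate 1 or 4, with adjusted p-values between 0.0608 and 0.0819, and with all arrays scaled to the same spread (-0.84 ± 0.25, limma, adjusted p = 0.0518). Neutrophil genes were called higher in 7 of 17 cases in this comparison, with means between 3.22 and 4.31 after CpG ODN and between 2.40 and 2.80 in untreated controls. Of 12 monocyte and macrophage genes 2 were called lower together with Clec1b, namely Mrc1, the macrophage mannose receptor (-1.29 ± 0.25), and Vcam1, an adhesion molecule of macrophages and endothelium (-1.04 ± 0.26), while Cd14 was higher by 2.59 ± 0.34 (limma, adjusted p = 0.00278, 0.0168 and 8.68e-05). The part of these cells in the Clec1b value was not tested.

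Gp9 in the same comparison had 1.54, 1.53, 1.51 and 1.64 after CpG ODN, against 2.11, 1.97, 1.96 and 1.91 in untreated controls. These groups were tight and did not overlap, but the difference of -0.43 ± 0.15 did not pass (limma, adjusted p = 0.0896). The remaining 6 genes had differences between -0.41 for Itgb3 and 0.39 for Gp5. Of the other platelet genes 5 were higher and 4 lower, beside 4.95% and 2.75% of all genes. Stx11 rose by 1.60 ± 0.17, Pdgfb, a growth factor of platelets and endothelium, by 1.16 ± 0.24 and Selp by 0.94 ± 0.27 (limma, adjusted p = 6.75e-06, 0.00503 and 0.0374). Cavin2 fell by 1.13 ± 0.22, Nfib by 0.84 ± 0.19, Cd36, the thrombospondin receptor, by 0.77 ± 0.23 and Meis1 by 0.72 ± 0.20 (limma, adjusted p = 0.00247, 0.00889, 0.046 and 0.0344).

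**Figure D4:**
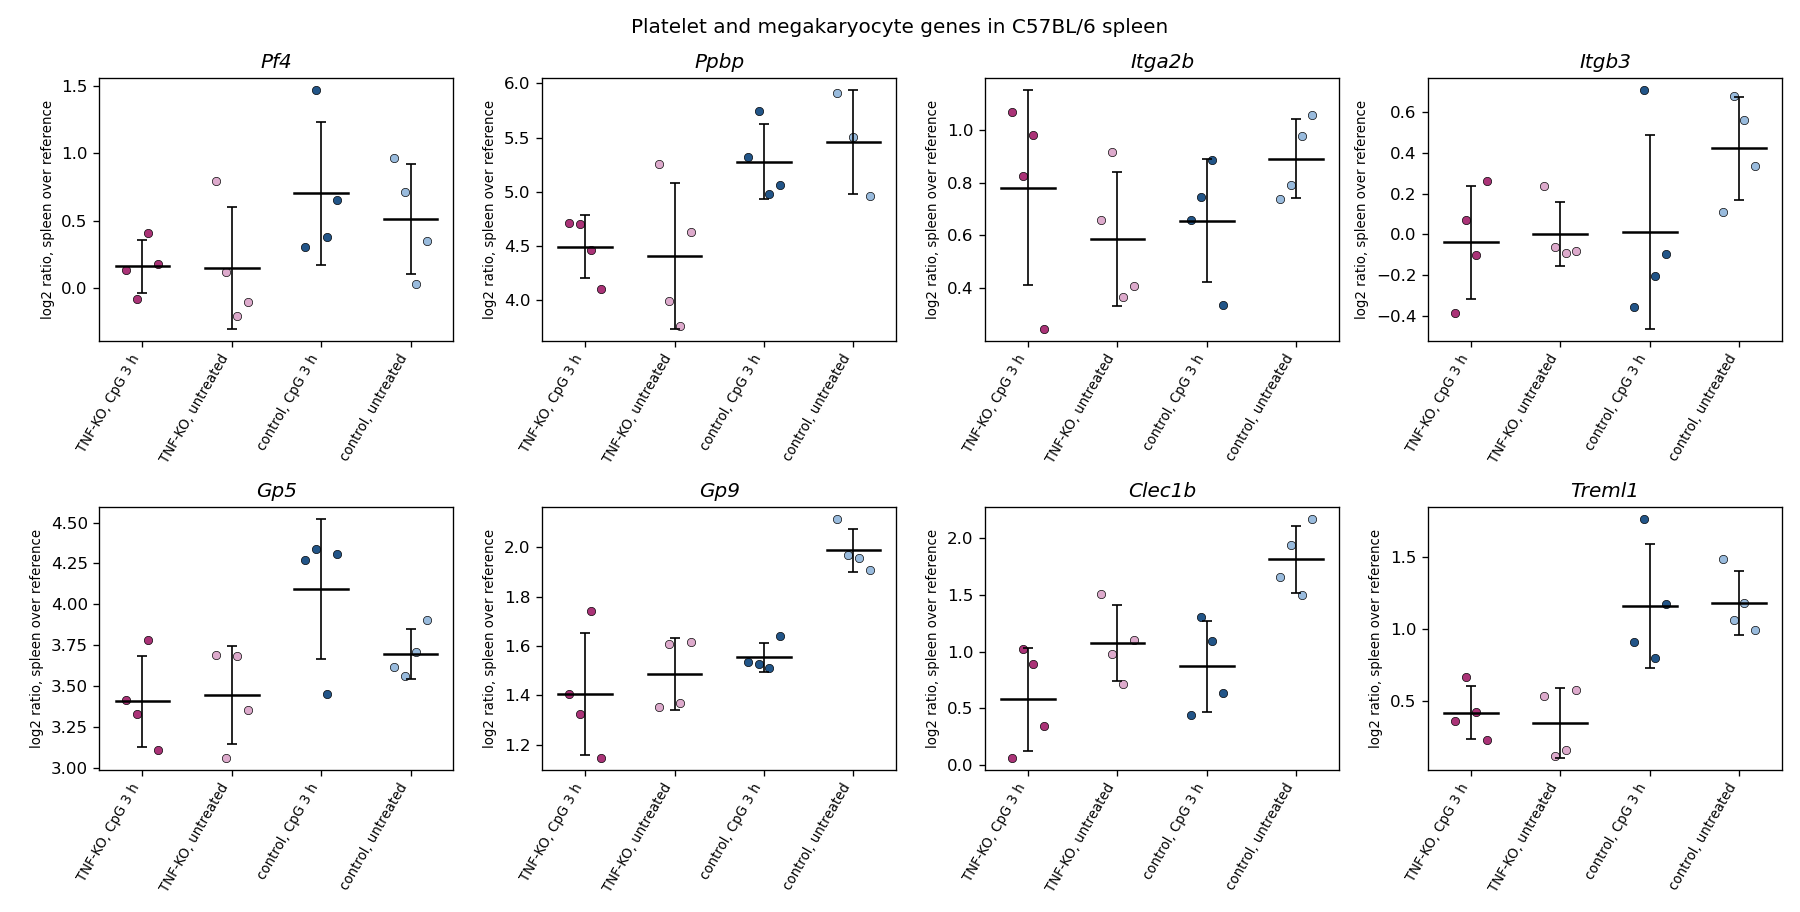
Log2 ratio of spleen over reference RNA (vertical axis) for 8 platelet and megakaryocyte genes in C57BL/6 arrays of 4 groups (horizontal axis), with Clec1b shown by the probe with values on all arrays. Points are arrays, lines are means and bars are SDs (n = 4, except 3 untreated controls for Ppbp). Treml1 lies between 0.11 and 0.66 in the TNF-KO arrays and between 0.80 and 1.76 in the control arrays. Neither Treml1 nor any other of the 8 genes was called between genotypes, untreated or after CpG ODN.

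In TNF-KO mice CpG ODN gave 0 calls among the 8 genes (limma, 0 at an unadjusted p under 0.05), beside 3.77% and 13.9% of all genes. Clec1b differed by -0.50 ± 0.25 with the probe with more values and by -0.66 ± 0.25 with the other (limma, adjusted p = 0.422 and 0.236 over all probes). The difference between the CpG responses of TNF-KO and control mice was called for 0 of the 8 genes (limma, 0 at an unadjusted p under 0.05), beside 0.0268% and 8.02% of all genes, and was 0.45 ± 0.35 for Clec1b and 0.35 ± 0.21 for Gp9. Of the other platelet genes 7 were higher and 0 lower after CpG ODN in TNF-KO mice, beside 3.45% and 0.321% of all genes. F13a1 rose by 2.02 ± 0.39, Stx11 by 1.91 ± 0.17, Selp by 1.22 ± 0.27 and Gata2 by 0.81 ± 0.22 (limma, adjusted p = 0.00403, 7.87e-07, 0.0103 and 0.0427). F13a1 and Stx11 are also expressed by myeloid cells and Selp by endothelium. Neutrophil genes were called higher in 8 of 17 cases with 0 lower, and their means per array lay between 2.88 and 3.75 after CpG ODN and between 1.41 and 2.85 in untreated TNF-KO spleens, with no overlap. Of 12 monocyte and macrophage genes 2 were called higher, Cd14 by 2.93 ± 0.34 and the scavenger receptor gene Marco by 1.09 ± 0.21 (limma, adjusted p = 2.03e-05 and 0.00389). None of 12 endothelial genes was called (limma, 2 at an unadjusted p under 0.05). What these cells contribute to the platelet list was not tested.

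Untreated TNF-KO spleens had lower means than untreated control spleens for all 8 genes, where 55.1% of all genes had higher ones, and none of the differences passed the test over all genes. Treml1 had 0.53, 0.11, 0.16 and 0.58 in TNF-KO spleens, against 1.49, 1.06, 1.18 and 0.99 in control spleens. The groups did not overlap, with a difference of -0.84 ± 0.21 (limma, adjusted p = 0.0758). Gp9 had 1.36, 1.61, 1.37 and 1.62 in TNF-KO spleens, against 2.11, 1.97, 1.96 and 1.91 in control spleens, also without overlap and with a difference of -0.50 ± 0.15 (limma, adjusted p = 0.164). Ppbp had 5.25, 3.99, 3.76 and 4.63 in TNF-KO spleens, against 5.91, 5.50 and 4.96 in the 3 control spleens that measured it, with a difference of -1.05 ± 0.32 (limma, adjusted p = 0.175). Clec1b differed by -0.74 ± 0.25 with the probe with more values and by -0.10 ± 0.25 with the other (limma, adjusted p = 0.249 and 0.933 over all probes).

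Of the 8 genes 0 were called in untreated spleens, beside 0.595% of all genes, and 4 had an unadjusted p under 0.05 in limma, where 11.3% of all genes had one. Treml1 was called without TNF-KO replicate 4 (-0.91, limma, adjusted p = 0.0326) and with array weights (-0.84, limma, adjusted p = 0.0463). After CpG ODN, TNF-KO against control spleens gave 0 calls among the 8 genes, beside 0.368% of all genes, and 3 at an unadjusted p under 0.05 in limma, where 12.6% of all genes had one. Treml1 had 0.36, 0.66, 0.42 and 0.23 in TNF-KO spleens after CpG ODN, against 0.91, 1.76, 0.80 and 1.17 in control spleens after CpG ODN. The groups did not overlap, with a difference of -0.74 ± 0.21 (limma, adjusted p = 0.135). Ppbp did not overlap either, with a difference of -0.78 ± 0.29, and Gp5 differed by -0.68 ± 0.21 (limma, adjusted p = 0.293 and 0.2). The share of all genes whose groups did not overlap was not taken, here or in the other comparisons.

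No other platelet gene of the 64 was called between genotypes, either untreated or after CpG ODN. At an unadjusted p under 0.05 in limma there were 9 of the 64 without treatment, beside 11.3% of all genes, and 16 of the 64 after CpG ODN, beside 12.6%. The transcription factor genes Gata1, Tal1 and Nfe2, which also act in erythroid cells, differed by -1.48 ± 0.34, -2.43 ± 0.60 and -2.08 ± 0.53 in untreated spleens (limma, adjusted p = 0.0564, 0.0779 and 0.0878). Erythroid genes were lower in untreated TNF-KO spleens, with 6 of 19 called and 17 of 19 below 0. Their mean per array lay between 1.75 and 3.89 in TNF-KO spleens and between 3.79 and 4.77 in control spleens. Pancreas genes were higher in all 11 cases with none called (limma, 2 at an unadjusted p under 0.05), with means between 3.15 and 6.84 in TNF-KO spleens and between 0.29 and 6.21 in control spleens. The part of either in the platelet values was not tested.

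Between strains, strain and array run cannot be told apart. Clec1b was higher in untreated C57BL/6 control spleens, with 1.498 as the lowest and 2.16 as the highest value of its probe with more values, than in untreated BALB/c spleens, with -0.02 as the lowest and 1.497 as the highest. The groups all but touched. Its change was 1.22 ± 0.40 and that of the other probe 0.87 ± 0.27 (limma, adjusted p = 0.0358 and 0.0219 over all probes, and 0.0337 over genes for the first). Ppbp differed by 1.09 ± 0.39 and Pf4 by -0.74 ± 0.28 (limma, adjusted p = 0.0511 and 0.0646), so these chemokine genes, neighbours on chromosome 5, had opposite signs. Of the 8 genes 1 was called, beside 14.5% of all genes, a share near that background. Markers of several other cell types also differed between the strains. Endothelial genes were called higher in 9 of 12 cases, monocyte and macrophage genes in 4 of 12 and T cell genes in 3 of 6, each with 0 lower. Neutrophil genes were higher in 5 of 17 cases and lower in 1, and their means per array did not overlap, lying between 2.40 and 2.80 in C57BL/6 controls and between 1.45 and 2.15 in BALB/c spleens. Erythroid genes were higher in 3 of 19 cases and lower in 1. The part of these cells in the Clec1b value was not tested. The Clec1b call was lost with arrays scaled to the same spread, and without untreated BALB/c replicate 3, 4, 5 or 6 or C57BL/6 replicate 1, 2 or 4, with adjusted p-values between 0.0548 and 0.097. The CpG responses at 3 h differed between C57BL/6 control and BALB/c mice for 0 of the 8 genes (limma, 0 at an unadjusted p under 0.05), beside 0.453% and 6.45% of all genes.

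Over all 12 groups the members kept different orders. Treml1 had its highest mean at 1 h after CpG ODN in BALB/c (1.75), followed by control ODN (1.56), and its lowest means in TNF-KO spleens, 0.42 after CpG ODN and 0.34 without treatment. The only neighbours in this order that differed by more than the larger of their SDs were BALB/c spleens at 3 h (0.80) and TNF-KO spleens after CpG ODN. Ppbp ran between 5.74 at 1 h and 4.37 in untreated BALB/c spleens, Gp5 between 4.09 in C57BL/6 controls after CpG ODN and 3.00 in untreated BALB/c spleens, and Gp9 between 2.50 after control ODN and 1.41 in TNF-KO spleens after CpG ODN. In none of these 3 genes did neighbours in the order differ beyond their SDs. For Pf4 the means of all 8 BALB/c groups, between 1.25 and 1.76, lay above those of all 4 C57BL/6 groups, between 0.15 and 0.70. The neighbours at that border differed beyond their SDs. Single arrays overlapped, with 1.465 as the highest in C57BL/6 controls after CpG ODN and 0.583 as the lowest in untreated BALB/c spleens. Pf4 was not called between untreated spleens of the strains, and strain and array run cannot be told apart.

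The integrin chains gave no call. Itga2b had group means between 0.59 in untreated TNF-KO spleens and 1.28 after control ODN, and Itgb3 between -0.04 in TNF-KO spleens after CpG ODN and 0.72 at 9 h. No neighbours in their orders differed beyond their SDs. For Clec1b the untreated C57BL/6 controls (1.81) stood above the next group, untreated TNF-KO spleens (1.08), by more than either SD with the probe with more values. With the other probe the highest group was 72 h (4.94) and the lowest untreated BALB/c (3.84).

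Within groups, after each group's mean was taken off, Ppbp varied together with Clec1b (r = 0.652 over 49 arrays) and Treml1 (r = 0.615 over 49 arrays), and Clec1b with Itgb3 (r = 0.611 over 49 arrays). Gp9 went with Itga2b (r = 0.518 over 50 arrays). The 2 chemokine genes Ppbp and Pf4 had r = 0.093 over 49 arrays. These values are descriptions across arrays that share the reference RNA and, in part, the run.

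Of 14547 genes measured on at least 45 arrays, Gp1bb was the most like the mean of the 8 genes, with r = 0.788 over 48 arrays. It was followed by Parvb, an actin-binding adaptor gene (0.761 over 50 arrays), Lilra6, a leukocyte immunoglobulin-like receptor gene (0.731 over 47), Slc9a3, a sodium-hydrogen exchanger gene (0.696 over 50), and Khsrp, an RNA-binding protein gene (0.67 over 50). Epor, the erythropoietin receptor gene (0.661 over 50), and Mpo, the myeloperoxidase gene of neutrophils (0.659 over 50), were also among the first 10. Within groups the mean of the 8 genes correlated with the means of other lists over 50 arrays, at r = 0.662 for neutrophil genes, 0.601 for B cell genes, 0.599 for monocyte and macrophage genes, 0.558 for endothelial genes, 0.305 for stem and progenitor cell genes, 0.303 for T cell genes, 0.084 for erythroid genes and -0.01 for pancreas genes. Among the lists of other platelet genes r was 0.596 for surface receptors, 0.468 for signalling genes, 0.378 for granule proteins and 0.101 for transcription factors. The value of the surface receptors lay below those of the neutrophil, B cell and monocyte genes and above that of the endothelial genes. The values of the other platelet lists lay below all of these, and the differences were not tested.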

How the data were processed

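The deposited table holds log2 ratios of spleen over reference RNA for 36607 probes on 50 arrays. Before deposit, the authors corrected for background, dropped flagged and dim spots, and normalised log2 ratios by lowess, per the series text. Probes were named through the platform annotation, updated by gene ID, which gave 26926 probes 1 symbol, 203 several and 9478 none. Each array was centred on its median, and 1 probe per gene was kept, that with most values, if measured on over 0.7 of the arrays of a fit. Group means were fitted with limma 3.58.1 in R 4.3.3, with BALB/c, C57BL/6 and, between strains, all arrays in separate fits, and the fit was tested on simulated data. An adjusted p is a Benjamini-Hochberg value across the genes of the comparison. The 9 genes and the role and marker lists were chosen with earlier results of these data known. Of each role list, up to 4 genes with the smallest p in a comparison could be named. Alternatives were no centring, scaling, array weights, other probe rules, a 2-fold minimum, replicate number or run as a term, and leaving out each array. Groups follow the sample titles.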

Additional observations from a re-analysis of the deposited data

Results flagged for a closer look

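Of 104 sets of values of 1 probe in 1 group, 7 held an array far from the others by Dixon's criterion, which chance gives in about 1 of 20 sets. Ppbp at 72 h had 4.12 in replicate 4, where the others lay between 5.91 and 6.23. Gp9 had 1.81 in replicate 2 at 1 h, where the others lay between 2.49 and 2.62, and 2.41 in replicate 2 at 24 h, where the others lay between 1.59 and 1.66. Gp5 had 3.45 in replicate 3 of C57BL/6 controls after CpG ODN, against 4.27 to 4.34 in the others. The other Clec1b probe had 3.25 in replicate 4 of TNF-KO spleens after CpG ODN, against 4.15 to 4.25 in the others. Itga2b had 1.15 in replicate 2 at 0.5 h, against 0.89 to 0.92 in the others, and Itgb3 0.24 in replicate 1 of untreated TNF-KO spleens, against -0.09 to -0.06 in the others.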

How the results depend on the processing

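Over 1029 values of single genes under other settings of the processing, 0 reversed a call, 9 lost one and 23 gained one. Over 1232 with 1 array left out, 0 reversed a call, 25 lost one and 18 gained one. A call could be lost only where the main fit made one. Those were 2 genes at 1 h, 1 at 72 h, 2 for CpG against control ODN, 1 in C57BL/6 controls and 1 between strains. Most of the values thus had no call to lose, and the losses fell on these few calls. Scaling all arrays to the same spread gave 1 call among the 8 genes at 1 h, 2 at 72 h, 1 for CpG against control ODN and 0 in C57BL/6 controls, and 6 at 1 h and 0 after control ODN among the other platelet genes. Array weights gave 6 calls at 72 h, 4 after control ODN, 4 for CpG against control ODN, 1 between untreated TNF-KO and control spleens and 3 between strains, and 13 among the other platelet genes after control ODN. A 2-fold minimum left 1 at 1 h, 0 for CpG against control ODN and 0 in C57BL/6 controls, and 9, 2 and 10 other platelet genes at 1 h, after control ODN and for CpG against control ODN. Testing all probes gave 2 at 72 h and 1 other platelet gene after control ODN, averaging probes 2 other genes after control ODN, complete probes 1 member after control ODN, and no centring 2 between strains. The first run alone gave 4 members and 23 other genes at 1 h. Leaving out 1 array gave between 1 and 3 members at 1 h, 0 and 2 at 72 h, 0 and 4 after control ODN, 1 and 3 for CpG against control ODN, 0 and 1 in C57BL/6 controls, 0 and 1 between untreated genotypes, 0 and 3 between strains, and 0 elsewhere, and between 5 and 15, 0 and 15, and 14 and 24 other genes at 1 h, after control ODN and for CpG against control ODN. Deviations of same-numbered arrays from their group means were correlated over genes. In every comparison but that of 72 h, at least 1 same-numbered pair had a negative correlation (between -0.354 and 0.072 at 1 h). At 72 h all 4 pairs were positive, between 0.049 and 0.308. The numbers were not taken as pairs. With the replicate block the other platelet genes called were 6 at 1 h and 0 after control ODN, and the counts of members stayed within 1.5 times. The cause of these shifts was not tested. Settings for the other platelet genes were chosen after seeing the data. The run as a term could not be estimated for 72 h, control ODN, CpG against control ODN or strain.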
